A study of Mus musculus with 4 samples.

Results

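The Notch pathway of the brain endothelium was examined through 10 genes in transcriptomes of sorted brain endothelial cells (ECs), taken by symbol: the ligands *Dll4*, *Jag1* and *Jag2*, the receptors *Notch1* and *Notch4*, the nuclear factor *Rbpj*, the target genes *Hes1*, *Hey1* and *Hey2*, and the feedback inhibitor *Nrarp*. All 10 were found among the 12693 gene symbols measured. Cells carrying CD31, a surface protein of ECs, were sorted from the cortex of C57BL/6 embryos at embryonic day 18, and RNA was sequenced from 2 wild-type samples and 2 samples of the genotype FOXQ1fl/fl;Tie2-Cre, called *Foxq1* cKO. In these embryos a floxed *Foxq1* gene, which encodes a forkhead transcription factor, is removed by Cre recombinase under the *Tie2* promoter, which is active in ECs and also in blood cell lineages. The study's methods give littermates without Cre as controls. The number of embryos behind each sample is not given in the sources used here, so p-values measure the spread between these samples, which may be technical.

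Notch signaling passes between touching cells. A Delta or Jagged ligand on the sending cell binds a Notch receptor, proteases release the receptor's intracellular part, and this part joins RBPJ on DNA to switch on genes of the Hes and Hey families. In growing vessels DLL4 restrains sprouting through NOTCH1 and sustains arterial identity, whereas JAG1 on ECs also signals to NOTCH3 on pericytes and smooth muscle cells.

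Regulatory sequence was inspected first, because RBPJ binds promoters of its own target genes. RefSeq promoter windows (GRCm38.p6, 250 bases before to 50 bases after the annotated start) were matched by symbol for 8 of the 10 genes, in 9 windows, with no entry for *Hes1* and *Hey1*. The windows of *Hey2*, a target gene, and of *Dll4*, *Rbpj* and *Nrarp*, for which the genotypes did not overlap, are shown 5′ to 3′ on the gene's strand, with the RBPJ core motif TGGGAA, or its reverse complement TTCCCA, in capitals.
*Hey2*, chr10:30842734-30843033, minus strand: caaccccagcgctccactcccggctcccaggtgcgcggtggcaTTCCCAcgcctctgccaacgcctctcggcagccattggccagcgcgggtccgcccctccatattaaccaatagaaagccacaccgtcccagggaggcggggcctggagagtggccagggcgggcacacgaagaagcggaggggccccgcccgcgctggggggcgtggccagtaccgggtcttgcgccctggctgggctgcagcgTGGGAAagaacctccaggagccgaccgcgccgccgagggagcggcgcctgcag
*Rbpj*, chr5:53590096-53590395, plus strand: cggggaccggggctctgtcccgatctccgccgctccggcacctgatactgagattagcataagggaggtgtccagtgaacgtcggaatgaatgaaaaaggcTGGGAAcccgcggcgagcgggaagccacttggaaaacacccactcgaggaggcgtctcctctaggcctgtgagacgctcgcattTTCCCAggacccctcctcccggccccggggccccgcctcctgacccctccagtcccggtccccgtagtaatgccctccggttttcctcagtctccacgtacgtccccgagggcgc
*Dll4*, chr2:119325534-119325833, plus strand: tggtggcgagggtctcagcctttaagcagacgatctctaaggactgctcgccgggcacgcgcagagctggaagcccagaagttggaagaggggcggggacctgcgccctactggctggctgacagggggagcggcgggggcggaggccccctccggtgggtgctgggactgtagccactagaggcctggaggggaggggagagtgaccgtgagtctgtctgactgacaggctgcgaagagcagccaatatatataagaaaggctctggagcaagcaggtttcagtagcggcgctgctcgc
*Nrarp*, chr2:25180508-25180807, plus strand: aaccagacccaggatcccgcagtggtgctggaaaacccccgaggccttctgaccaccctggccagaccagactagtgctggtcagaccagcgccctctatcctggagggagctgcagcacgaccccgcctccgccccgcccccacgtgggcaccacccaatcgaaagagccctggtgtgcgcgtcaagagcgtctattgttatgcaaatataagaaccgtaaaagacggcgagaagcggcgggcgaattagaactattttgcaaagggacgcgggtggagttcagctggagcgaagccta

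Searched on both strands, TGGGAA was present in 3 of the 9 windows, against 25.6% of all 32851 promoter windows in the same table. In the *Hey2* window it occurred on both strands, with first bases at -207 and -3 from the start, and both matches extended to the longer form GTGGGAA, which contains TGGGAA and was found in 6.38% of all windows. In the *Rbpj* window shown it occurred on both strands as well, at -149 and -65, and the match at -65 recurs at -205 in the window of a second *Rbpj* start. The *Dll4* and *Nrarp* windows held no match. The forkhead core TGTTTA was in 0 of the 9 windows and in 13.4% of all windows. A match describes letters only, and these windows do not cover enhancers.

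The table held between 15827166 and 21466436 reads on listed genes per sample, and each gene listed had at least 1 read in every sample. *Foxq1* itself had 353 and 297 normalized counts (reads divided by a size factor per sample) in wild-type against 5.44 and 32.6 in *Foxq1* cKO samples, so the labels matched the targeted gene. All 14 endothelial markers examined were listed, and their summed level was between 389404 and 427465 normalized counts in wild-type and between 340389 and 378118 in *Foxq1* cKO samples, with 9 of 14 markers lower in both *Foxq1* cKO samples and 1 higher, against 18% of all genes tested in each direction. Mural cell RNA was also abundant: 8 of 11 pericyte and smooth muscle markers were listed, *Rgs5* alone had between 89164 and 93044 normalized counts in every sample, and the sum of the list overlapped between genotypes (152929 to 155089 in wild-type, 145742 to 160389 in *Foxq1* cKO). *Acta2*, *Tagln* and *Myh11* were sought but were not among the genes listed, so their level is not known here. Summed markers of microglia and macrophages (10 of 10 listed) were 10320 to 12637 in wild-type and 7738 to 8322 in *Foxq1* cKO samples, and those of neural progenitors and glia (9 of 10 listed) were 24958 to 27451 and 24911 to 25407. The sums overlapped between genotypes for neurons (8 of 10 listed, 4372 to 4495 and 3096 to 4565), erythroid cells (7 of 7, 15770 to 20859 and 16022 to 20516), fibroblasts (4 of 6, 8790 to 9941 and 5736 to 9434) and oligodendrocyte precursors (3 of 5, 8112 to 8122 and 7052 to 8198). No listed marker was at 0.

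Across the 10 Notch genes, no difference between the genotypes passed the test. None had an unadjusted p under 0.05 in limma, where 5.22% of the 12472 genes tested did. After Benjamini-Hochberg adjustment over all genes the smallest adjusted p among the 10 was 0.857. The deleted gene *Foxq1* (log2 fold change -4.47, unadjusted p = 0.00507, limma) had an adjusted p of 0.857 as well, and 0.00837 in DESeq2. The adjusted p in limma thus did not call even the deleted gene at this sample size. Means were higher in *Foxq1* cKO samples for 3 genes and lower for 7, with log2 fold changes between -0.67 (*Hey1*) and 0.88 (*Hes1*) and a median of -0.29, beside a median of 0.0086 over all genes tested. The *Foxq1* cKO samples lay wholly above the wild-type samples for 1 gene (*Dll4*) and wholly below for 3 (*Hey1*, *Rbpj* and *Nrarp*), whereas 36% of all genes tested showed such a separation, 18% above and 18% below. These 4 of 10 are therefore near the background. For 8 of the 10 genes the replicates of at least 1 genotype stood farther apart than the genotype means on the log2 scale, as they did for 77.3% of all genes tested. At 2 samples against 2, the smallest two-sided p that an exact permutation test allows for any gene is 0.33.

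**Figure D1:**
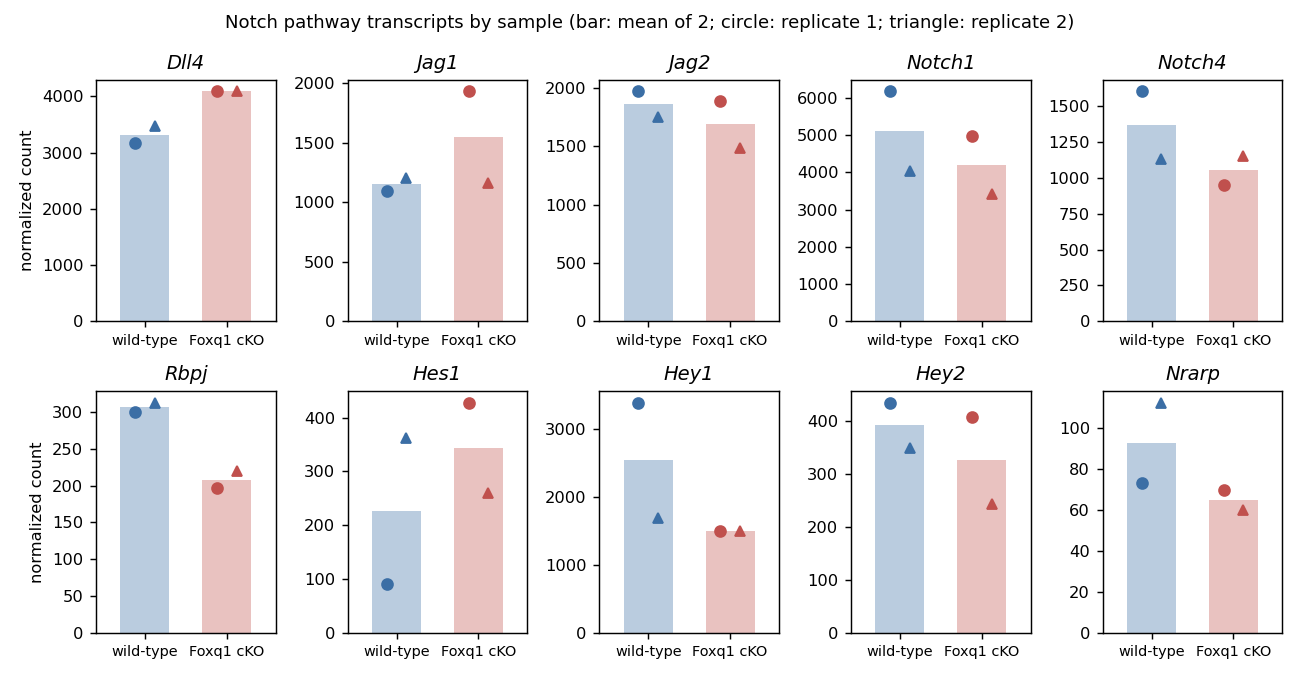
Normalized counts of the 10 Notch genes on linear axes from 0, with wild-type in blue and *Foxq1* cKO in red; bars are means of 2 samples, circles replicate 1 and triangles replicate 2. *Dll4* is higher in both *Foxq1* cKO samples, *Hey1*, *Rbpj* and *Nrarp* are lower in both, and the other 6 genes overlap.

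Among the ligands, *Dll4*, the Delta-type ligand of arterial and tip ECs, had 3167 and 3473 normalized counts in wild-type samples and 4092 and 4093 in *Foxq1* cKO samples. Both *Foxq1* cKO values were above both wild-type values, and they were nearly equal to each other. The means were 3320 ± 216 and 4092 ± 0.199 (SD, n = 2), and the second was 123% of the first. The log2 fold change of 0.30 (standard error 0.170, unadjusted p = 0.124, limma) did not pass the test, on 3484 to 4023 reads per sample. *Gm14207* on the opposite strand overlaps 214 bp of its exons and had 208 to 360 reads itself. Whether the counting used strand is not given in the sources used here, so reads in that stretch cannot be divided between both genes.

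*Jag1*, the Jagged ligand through which ECs instruct mural cells, had 1096 and 1208 normalized counts in wild-type against 1933 and 1164 in *Foxq1* cKO samples. The first *Foxq1* cKO sample was high, and the second lay between the wild-type samples. Its log2 fold change of 0.38 (standard error 0.324, unadjusted p = 0.282, limma) was 0.016 without *Foxq1* cKO replicate 1 and was 0.75 without *Foxq1* cKO replicate 2. *Jag2*, the other Jagged ligand, had 1973 and 1751 normalized counts in wild-type against 1892 and 1487 in *Foxq1* cKO samples, which overlap. Its log2 fold change was -0.15 with a 95% confidence interval from -0.74 to 0.44.

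The balance of Delta to Jagged transcripts was compared within each sample, where the size factor cancels. The log2 ratio of *Dll4* to *Jag1* normalized counts was 1.53 and 1.52 in wild-type samples. It was 1.08 and 1.81 in *Foxq1* cKO samples, 1 below and 1 above the wild-type pair. The genotype means of this ratio differed by -0.079, less than the *Foxq1* cKO samples differed from each other.

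Of the receptors, *Notch1*, the principal receptor for DLL4 in ECs, had 6178 and 4038 normalized counts in wild-type against 4978 and 3415 in *Foxq1* cKO samples. Replicate 1 was the higher sample in both genotypes, and the groups overlapped. The log2 fold change was -0.28 (standard error 0.282, unadjusted p = 0.364, limma), and its 95% confidence interval ran from -0.96 to 0.41. Without wild-type replicate 1 the difference was 0.030, with the opposite sign. *Notch1* shares 1389 bp of exon sequence with *0610009E02Rik* and *Gm13568* on the opposite strand.

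*Notch4*, a receptor found mainly in ECs, had 1600 and 1133 normalized counts in wild-type against 951 and 1149 in *Foxq1* cKO samples. The second *Foxq1* cKO sample lay just above the second wild-type sample, so the groups overlapped. The log2 fold change was -0.36 (standard error 0.301, unadjusted p = 0.271, limma). The log2 ratio of *Notch1* to *Notch4* was 1.95 and 1.83 in wild-type against 2.39 and 1.57 in *Foxq1* cKO samples, so the *Foxq1* cKO values again enclosed the wild-type values.

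*Rbpj*, the DNA-binding partner of every Notch receptor, had 301 and 313 normalized counts in wild-type against 197 and 220 in *Foxq1* cKO samples. Replicates were close in both genotypes, and the *Foxq1* cKO mean was 67.9% of the wild-type mean (307 ± 8.64 against 208 ± 16.0, SD, n = 2). Only *Rbpj* and *Dll4* among the 10 had a genotype difference larger than both replicate gaps. For the other 8 a replicate gap was larger, as for 77.3% of all genes tested, so the 10 are near the background. The log2 fold change of -0.56 (standard error 0.519, unadjusted p = 0.323, limma) did not pass the test. Under other processing of the 4 samples its unadjusted p in limma ranged from 0.118, without a trend in eBayes, to 0.525, relative to endothelial markers. *Rbpj* rested on 181 to 357 reads per sample, and its processed pseudogenes *Rbpj-ps1* and *Rbpj-ps3* could share reads with it, although the listed *Rbpj-ps3* had no more than 8 reads in any sample.

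**Figure D2:**
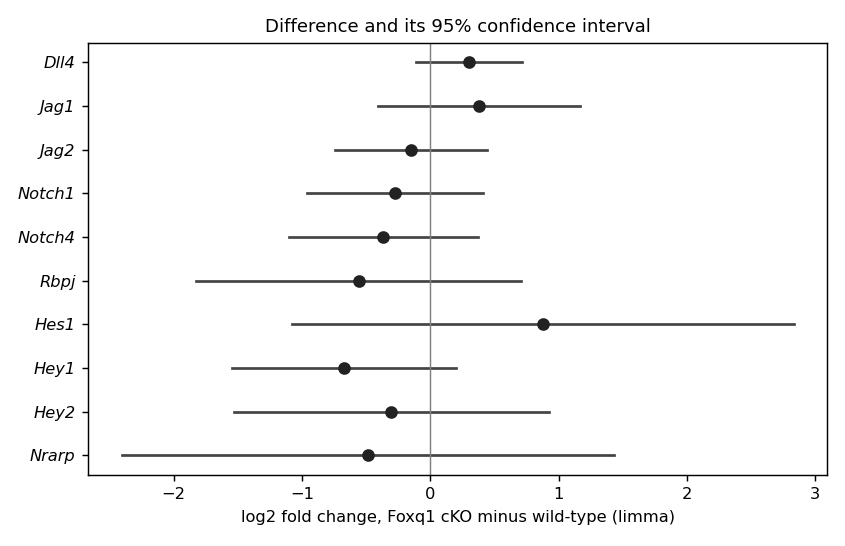
Log2 fold change of each Notch gene, *Foxq1* cKO minus wild-type, from limma on log2 of the normalized count plus 1; dots are estimates and lines 95% confidence intervals. Every interval contains 0, and those of *Dll4* (-0.11 to 0.72) and *Hes1* (-1.08 to 2.84) are the narrowest and the widest.

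The target genes encode basic helix-loop-helix repressors. *Hey1*, which acts in arterial ECs, had 3381 and 1683 normalized counts in wild-type against 1495 and 1498 in *Foxq1* cKO samples. Wild-type replicate 1 stood far above the other 3 samples, which lay close together. The *Foxq1* cKO mean was 59.1% of the wild-type mean, with a log2 fold change of -0.67 (standard error 0.357, unadjusted p = 0.108, limma). On the recovered reads DESeq2 gave -0.76 (unadjusted p = 0.033, adjusted p = 0.676), the only 1 of the 10 genes under 0.05 where 6.49% of all genes were, and edgeR's quasi-likelihood test gave an unadjusted p of 0.0763, with 0 of the 10 under 0.05 against 4.93% of all genes. Without a trend in eBayes the unadjusted p of *Hey1* in limma was 0.217. The size of the difference depended on the wild-type samples: it was -0.17 without wild-type replicate 1 and -1.18 without wild-type replicate 2.

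*Hes1*, a target in many cell types including neural progenitors, had 90.2 and 362 normalized counts in wild-type against 428 and 260 in *Foxq1* cKO samples. Wild-type replicate 1 was the low sample here, with 107 reads, and wild-type replicate 2 lay between the *Foxq1* cKO samples. Its wild-type samples differed 4.01-fold, more than those of any other of the 10 genes, and the log2 fold change was 0.88 (standard error 0.802, unadjusted p = 0.314, limma). It was -0.12 without wild-type replicate 1 and 1.88 without wild-type replicate 2.

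In the same wild-type sample, *Hey1* was thus at its highest and *Hes1* at its lowest. The log2 ratio of *Hey1* to *Hes1* was 5.23 in wild-type replicate 1, 2.22 in wild-type replicate 2, and 1.80 and 2.52 in *Foxq1* cKO samples. Wild-type replicate 2 lay between the *Foxq1* cKO samples. *Hey2*, the other Hey gene of arterial ECs, had 434 and 348 normalized counts in wild-type against 407 and 243 in *Foxq1* cKO samples, with overlapping groups and a log2 fold change of -0.30 (standard error 0.504, unadjusted p = 0.569, limma). The log2 ratio of *Hey1* to *Hey2* was 2.96 and 2.27 in wild-type against 1.88 and 2.62 in *Foxq1* cKO samples.

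*Nrarp* encodes an ankyrin repeat protein that is induced by Notch and limits its activity. It had 73.3 and 112.7 normalized counts in wild-type against 69.7 and 60.0 in *Foxq1* cKO samples, from 59 to 113 reads. The first wild-type sample was close to the first *Foxq1* cKO sample, and the wild-type gap exceeded the genotype difference. Its log2 fold change of -0.48 had a 95% confidence interval from -2.41 to 1.44. *Nrarp* has a single exon of 2582 bp, of which 2051 bp overlap *Gm38287* on the opposite strand.

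**Figure D3:**
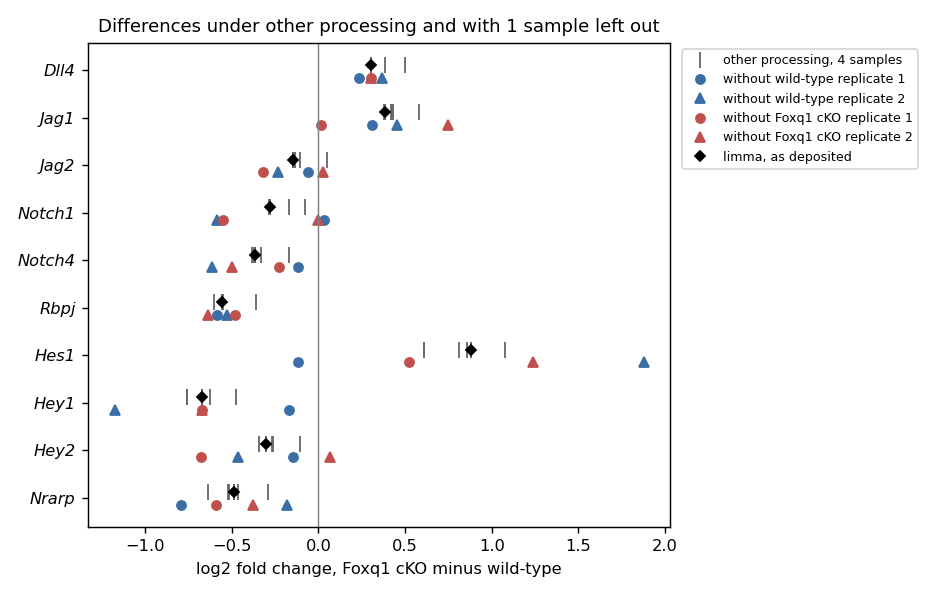
Log2 fold change of each Notch gene under other processing of the 4 samples (grey ticks), as reported (black diamonds) and with 1 sample left out (blue without a wild-type sample, red without a *Foxq1* cKO sample; circles replicate 1, triangles replicate 2). *Dll4*, *Jag1*, *Notch4*, *Rbpj*, *Hey1* and *Nrarp* stay on 1 side of 0 throughout, and *Hes1* moves from -0.12 to 1.88 with the wild-type sample left out.

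The summed endothelial markers were lower in both *Foxq1* cKO samples, and the cause was not tested and cannot be told from sorted bulk samples. The 10 genes were therefore also expressed relative to the geometric mean of the 14 endothelial markers. This scaling moved the median log2 fold change of all genes from 0.0086 to 0.205. The median of the 10 genes became -0.094, with 4 genes higher and 6 lower, and *Jag2* changed sign to 0.049. *Dll4* was then 0.50 higher on the log2 scale with an unadjusted p of 0.0487 in limma. At an unadjusted p under 0.05 that fit had 519 genes higher and 177 lower, of 12476 tested, against 271 and 380 without the scaling. Without the scaling the unadjusted p of *Dll4* in limma was 0.124, and 0.334 without a trend in eBayes. Relative to the markers *Rbpj* was at -0.36 and *Hey1* at -0.48.

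Levels were compared between the genes per exon length, as normalized counts per kb of all annotated exons. *Dll4* stood first with 822 and 902 in wild-type samples, at percentile 91.6 of all genes, followed by *Hey1* with 1035 and 515 (percentile 90.6). *Notch1* (434 and 284), *Jag2* (283 and 251), *Jag1* (188 and 207), *Notch4* (199 and 141), *Hes1* (44.3 and 178) and *Hey2* (94.5 and 75.8) followed in wild-type. *Nrarp* (28.4 and 43.6) and *Rbpj* (23.6 and 24.6) were lowest, at percentiles 23.5 and 16.4. Over the 4 samples most neighbours in this order overlapped. Gaps without overlap separated *Hey1* from *Notch1*, and *Hey2* from *Nrarp*. The annotation of *Rbpj* has 12750 bp of exon sequence over all its transcripts, so its value per kb is low for transcripts that use only part of it.

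**Figure D4:**
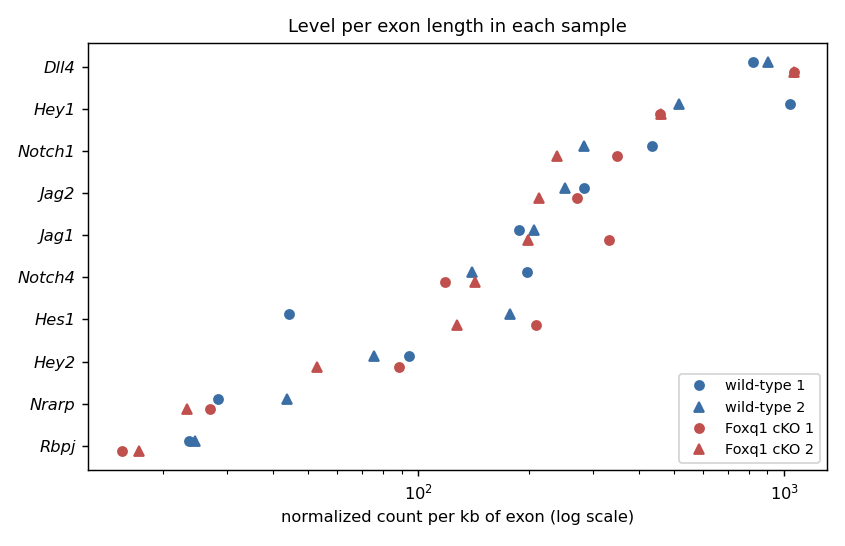
Normalized counts per kb of exon on a log axis, for each Notch gene and sample, ordered by the mean of the 4 samples; blue is wild-type, red *Foxq1* cKO, circles replicate 1 and triangles replicate 2. *Dll4* and *Hey1* are highest, *Nrarp* and *Rbpj* lowest, and points of neighbouring genes mostly overlap.

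The pathway around these genes was followed through a list of 86 further genes, of which 73 were measured. Of these, 1 was higher and 1 lower in *Foxq1* cKO samples at an unadjusted p under 0.05, against 2.17% and 3.05% of all genes tested, and none had an adjusted p under 0.05 in limma. The groups did not overlap for 23 of the 73, 7 above and 16 below wild-type, where 18% of all genes tested lay above and 18% below. The median log2 fold change was -0.075.

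Other ligands and receptors were uneven in level. *Dll1*, a Delta ligand of neural progenitors, was the gene that was higher: it had 64.9 and 19.9 normalized counts in wild-type against 333 and 141 in *Foxq1* cKO samples. Its log2 fold change of 2.55 (standard error 0.944) carried an unadjusted p of 0.0349 (adjusted p = 0.857, limma). *Dll1* also belongs to the neural progenitor markers, whose summed level was 24958 and 27451 in wild-type against 25407 and 24911 in *Foxq1* cKO samples, without separating the genotypes. Single markers went both ways. Of 9 listed, *Dll1* included, 3 were higher and 3 lower in both *Foxq1* cKO samples, against 18% of all genes tested in each direction. *Notch3*, the receptor of mural cells, had 3920 and 3879 normalized counts in wild-type against 5542 and 3253 in *Foxq1* cKO samples. *Notch2* had 462 and 764 against 346 and 471, and neither receptor separated the genotypes.

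No enzyme that modifies or cuts the receptor passed the test. *Poglut1*, which glucosylates the receptor, was lower in both *Foxq1* cKO samples. This held for 1 gene of 5 in its group and for 18% of all genes tested. Normalized counts of *Poglut1* were 1325 and 1130 in wild-type against 908 and 853.5 in *Foxq1* cKO, with an unadjusted p of 0.138 in limma. *Mfng*, a fringe glycosyltransferase that favours Delta over Jagged ligands, had 6635 and 8568 normalized counts in wild-type against 7945 and 9757 in *Foxq1* cKO samples. *Lfng*, another fringe, had 202 and 267 against 143 and 315, and both fringe genes overlapped between genotypes. *Adam10*, which makes the cleavage that follows ligand binding, had 6938 and 8206 against 7493 and 8347, a log2 fold change of 0.068 (standard error 0.156). Among 9 cleavage genes measured, 0 had an unadjusted p under 0.05 in limma, against 5.22% of all genes tested. The *Foxq1* cKO samples lay above wild-type for 1 and below for 2, where 18% of all genes tested lay above and 18% below.

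In the nucleus, 8 activators and 12 repressors were measured, with median log2 fold changes of -0.023 and -0.071, beside 0.0086 over all genes tested. No gene of either group had an unadjusted p under 0.05 in limma, where 5.22% of all genes tested did. *Maml1*, a coactivator of the Notch and RBPJ complex, had 48.0 and 1059 normalized counts in wild-type against 720 and 208 in *Foxq1* cKO samples, so its replicates disagreed widely. Its log2 fold change was 0.77 in limma and -0.26 in DESeq2, and ranged from -1.45 to 2.98 with 1 sample left out.

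Further target genes included *Heyl*, a Hey gene known from mural cells, with 3800 and 6226 normalized counts in wild-type against 6278 and 4700 in *Foxq1* cKO samples, which overlap. *Flt1*, a decoy receptor for VEGF that Notch induces in ECs, was the gene that was lower: it had 15578 and 10849 normalized counts in wild-type against 9582 and 9017 in *Foxq1* cKO samples. Its log2 fold change of -0.48 (standard error 0.194) carried an unadjusted p of 0.0463 (adjusted p = 0.857, limma). *Flt1* is also among the endothelial markers, and relative to those markers it was -0.29 with an unadjusted p of 0.16 in limma. Its unadjusted p in limma was 0.0914 with quantile normalization and 0.222 without a trend in eBayes. Of 14 target genes known in endothelium, 3 had a positive and 11 a negative log2 fold change, beside 6323 and 6149 of all genes tested. Their median was -0.18, and that of the 14 endothelial markers, which also include *Flt1* and *Kdr*, was -0.20. The list of target genes does not record whether Notch raises or lowers each gene.

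**Figure D5:**
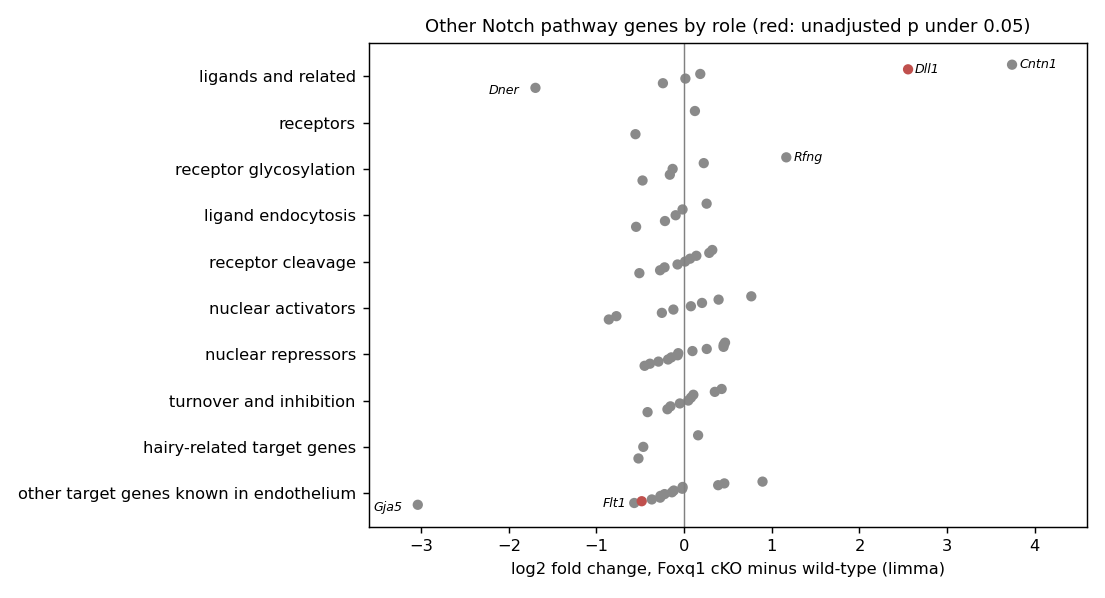
Log2 fold change, *Foxq1* cKO minus wild-type, of 73 other Notch pathway genes by role; each dot is a gene and red marks an unadjusted p under 0.05 in limma. Most genes lie near 0, *Dll1* (2.55) and *Flt1* (-0.48) are red, and a few genes farther from 0 are grey.

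Finally, the pathway gene with the nearest pattern over the 4 samples was sought for each of the 10 genes among 82 others, as the root mean square difference of log2 values centred on the gene's mean. The profile of *Hey1* was nearest to *Unc5b* (0.109), *Notch4* to *Furin* (0.058), *Jag2* to *Cdkn1b* (0.051), and *Dll4* to *Dtx3l* (0.063). *Notch1* and *Hey2* were both nearest to *Pofut1* (0.083 and 0.104), and *Jag1* to *Notch3* (0.141). *Rbpj* was nearest to *Poglut1* (0.140), *Nrarp* to *Nedd4* (0.174), and *Hes1* had the most distant neighbour, *Rfng* (0.259). The profiles of *Jag2* and *Dll4* varied little around their own means (root mean square 0.156 and 0.159), and that of *Hes1* varied most of the 10 (0.868). How many genes lie this close with 4 samples was not counted, and the values describe these samples only.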

How the data were processed

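For CD31-sorted cells the authors deposited 1 table, a signal per gene in which read counts were divided by a size factor per sample. Submitters' processing notes name TopHat2 2.0.12, Bowtie2 2.2.3, HTSeq 0.6.0 and the build mm9, without roles; annotation and strand setting are not given in the sources used here. The paper names Smart-seq2 for the libraries, whereas the labels describe standard libraries from total RNA. Amplified reads without molecular identifiers are not independent molecules, so low counts carry extra error.

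Repeated lines (1207361) were collapsed to 12693 symbols. All values (100% per sample, within 0.001 of a whole number) were whole multiples of 1 step, which gave the reads. limma 3.58.1 in R 4.3.3 (eBayes with a trend, unpaired) was run on log2 of the value plus 1 for the 12472 genes averaging at least 10 over the samples, which understates changes of low genes; the median standard error was 0.496. DESeq2 1.42.0 and edgeR 4.0.16 on the recovered reads were alternatives. The limma fit with these settings, DESeq2 and edgeR were tested on simulated data, and the other alternatives were not. Coordinates and exon lengths came from GENCODE vM21 (GRCm38), matched by gene identifier (12685 of 12701), which is not the build named by the submitters. Figures used matplotlib 3.10.9.

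The 10 genes, the wider list and the tests were chosen with earlier results of these data known. Named genes were the 10, *Foxq1*, further pathway genes (*Notch2*, *Notch3*, *Dll1*, *Lfng*, *Mfng*, *Adam10*, *Maml1*, *Heyl*), wider-list genes with an unadjusted p under 0.05, and nearest patterns; 1 gene that this rule names is not reported here.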

Additional observations from a re-analysis of the deposited data

How the results depend on the processing

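The 9 alternatives that kept the 4 samples were a pseudocount of 5, no filter, quantile normalization, TMM, endothelial marker scaling, eBayes without a trend, the replicate number as a block, DESeq2 and edgeR. Genes at an adjusted p under 0.05 numbered 0 in limma (651 unadjusted) and in edgeR (615 unadjusted), and 62 in DESeq2. Endothelial marker scaling changed the split at an unadjusted p under 0.05 from 271 higher and 380 lower to 519 and 177. It gave 1 of the 10 Notch genes (*Dll4*) and 1 wider gene at that level, medians of -0.094 and 0.122, and signs opposite to the main fit for *Jag2* (0.049) and *Lfng* (0.064). DESeq2 gave 1 of the 10 (*Hey1*). *Maml1* reversed in DESeq2 (-0.26) and edgeR (-0.25). Without a trend 1 wider gene had an unadjusted p under 0.05, beside 675 of all 12472 genes. With the replicate block the count was 4 of the 73 wider genes and 0 of the 10, beside 693 of all 12472 genes. The replicate differences of both genotypes were nearly uncorrelated over the genes tested (r = 0.0325). This correlation cannot show whether same-numbered samples shared a litter or a batch, which the sources used here do not give. The causes of the changes between fits were not tested.

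When 1 sample was left out, the lone sample of its genotype is assumed to vary like the other genotype. Genes at an unadjusted p under 0.05 then numbered 276 to 1576, with 1576 without wild-type replicate 2 and 276 without *Foxq1* cKO replicate 1. The 10 Notch genes gave 0 to 2 and a median from -0.40 to 0.011, and the wider list gave 0 to 8 and a median from -0.099 to -0.010. No fit of this kind gave an adjusted p under 0.05. The highest counts of both Notch lists came from the fit without wild-type replicate 2. That fit tested 12473 genes and also had the most genes at an unadjusted p under 0.05. Neither count is therefore read as specific to Notch genes. Log2 fold changes that crossed 0 ranged from -0.58 to 0.030 for *Notch1*, from -0.12 to 1.88 for *Hes1*, from -0.32 to 0.026 for *Jag2*, from -0.67 to 0.067 for *Hey2*, from -0.053 to 0.19 for *Adam10*, from -1.45 to 2.98 for *Maml1*, from -0.20 to 0.52 for *Heyl*, from -0.70 to 0.44 for *Lfng*, and from -0.26 to 0.51 for *Notch3*. *Dll1* (1.73 to 3.38) and *Flt1* (-0.74 to -0.22) kept their signs and had unadjusted p up to 0.211 and 0.239. *Hes1*, *Nrarp* and *Rbpj*, with 59 to 393 reads per sample, had the widest intervals of the 10, and a change of 1 on the log2 scale in either direction lies within those of *Hes1* and *Nrarp*.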

Other observations

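Among the target genes known in endothelium, 2 arterial genes outside the naming rule were chosen after their values were seen. *Gja5*, which encodes an arterial gap junction protein, had 340.4 and 292 normalized counts in wild-type against 9.80 and 136 in *Foxq1* cKO samples, so both *Foxq1* cKO samples were lower and far apart, with a log2 fold change of -3.04 (standard error 1.26, unadjusted p = 0.0524, adjusted p = 0.857, limma). *Efnb2*, the arterial ephrin ligand, had 149 and 89.7 normalized counts in wild-type against 184 and 253 in *Foxq1* cKO samples, a log2 fold change of 0.89 (standard error 0.666, unadjusted p = 0.228, limma). Of the 3 hairy-related genes outside the 10, *Hes5* (1608 and 1693 against 1374 and 1038 normalized counts) and *Hes6* (1924 and 1334 against 1121 and 1111), also chosen after their values were seen, had both *Foxq1* cKO samples below wild-type, as did 18% of all genes tested, with unadjusted p of 0.127 and 0.116 in limma. *Heyl* overlapped between genotypes with a log2 fold change of 0.16, and *Hes5* is also among the neural progenitor markers.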
